A study of Mus musculus with 18 samples.

Results

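The genes described here encode the mitochondrial respiratory chain, that is, the subunits of complexes I to V together with a few factors whose names begin in the same way. They were chosen by name among the protein-coding genes of a table of gene expression in mouse embryonic stem cells (ESCs): symbols that begin with Nduf, Uqcr, Atp5, mt- or Cox and a digit, and Sdha, Sdhb, Sdhc and Sdhd. Of the 10965 genes in the table, 80 were members. Among them, 36 belong to complex I (31 nuclear genes and 5 genes of the mitochondrial DNA, mtDNA), 4 to complex II, 9 to complex III (8 nuclear and mt-Cytb), 17 to complex IV (16 nuclear and mt-Co1) and 14 to complex V. Ndufa4, which is named for complex I but is now known as a subunit of complex IV, and its paralog Ndufa4l2 were counted with complex IV. All 80 had passed the authors' filters: a gene had to reach 5 TPM (a transcript's share of all transcripts, scaled alike in every library) in at least 3 samples, and the least variable 20% were dropped. Genes of these families outside the table were not analysed here, so that the members are no complete account of the chain.

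RNA was sequenced from 6 groups of 3 libraries each. Control (Ctrl) ESCs were Zeb2 flox/flox, which means that loxP sites flank Zeb2 on both alleles, and the knockout (KO) ESCs were Zeb2 -/-. Both were of the strain CD1. At d0 the cells were in 2i + LIF, a serum-free medium with inhibitors of the MEK and GSK3 kinases that holds ESCs in the ground state, without feeder cells. They were then grown as embryoid bodies (EBs) in medium with 15% FBS until d4, and from d4 to d6 in N2B27 with 500 nM retinoic acid, which drives neural differentiation (ND). Zeb2 is a DNA-binding repressor with a known part in neural development. The libraries of a group came from separate experiments, per the study. How many ESC lines stand behind them is not given in the sources used here, so that p-values measure the spread between these experiments and not between lines.

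Complexes I and II take electrons from NADH and succinate and pass them over ubiquinone to complex III and over cytochrome c to complex IV, which reduces oxygen. Complexes I, III and IV pump protons across the inner membrane, and complex V, the ATP synthase, uses the gradient to make ATP. Complex II is also the succinate dehydrogenase of the citric acid cycle and is encoded by nuclear genes alone, whereas the other complexes join nuclear subunits to subunits made inside the mitochondrion from mtDNA. Pluripotent cells are known to change their balance of glycolysis and respiration when they leave the ground state, and this makes the chain of interest in these cells.

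The libraries held 9622622 to 15617675 reads on all 10965 genes of the table, with a median of 12131165. These are whole reads recovered from the TPM values. Zeb2 was measured at 1.23, 1.39 and 1.47 TPM in Ctrl and 0.126, 0.204 and 0.161 TPM in KO at d4, with a log2 difference of -1.02 ± 0.12 (adjusted p = 2.56e-06), and its difference at d6 was -2.37 ± 0.12 (adjusted p = 6.98e-11). At d0 it was 0.138, 0.123 and 0.128 TPM in Ctrl and 0.0171, 0.0274 and 0.0203 TPM in KO, a difference of -0.14 ± 0.12 (adjusted p = 0.36) that was not called on the scale used. A log2 difference here is one between group means of log2(TPM + 1), followed by its standard error from limma and a Benjamini-Hochberg adjusted p over all 10965 genes, and a gene was called higher or lower at an adjusted p below 0.01. For genes of few TPM this scale understates a change. Differences between genotypes are KO minus Ctrl. The median over all genes was not at 0 in these comparisons: it was 0.26 from d0 to d4 in Ctrl, 0.15 from d0 to d4 in KO, and -0.07, -0.16 and -0.14 for KO against Ctrl at d0, d4 and d6. After rescaling by the median ratio of the genes it was -0.02 and -0.01 for the changes from d0 to d4 and 0.00 and 0.01 for KO against Ctrl at d4 and d6, so that the members are given beside all genes throughout. Reads were 36 bases long, and how reads that match several copies of a gene were counted is not given in the sources used here. Many genes of the chain have processed pseudogenes, so that their levels are uncertain to that extent.

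The cells differed in their markers on the same days. The 4 epiblast markers added up to 54.4 to 71.4 TPM in Ctrl and 391 to 565 TPM in KO at d4, and to 76.9 to 81.7 TPM and 757 to 886 TPM at d6, with 4 of 4 called higher in KO on both days. The 5 neural markers (371 to 413 TPM in Ctrl and 89.6 to 107 TPM in KO at d6) were all called lower in KO at d6, as were the 4 endoderm markers (63.1 to 98.5 TPM and 10.8 to 15.1 TPM). Of the mesoderm markers only Meox1 was in the table, at 185 to 229 TPM in Ctrl and 0.605 to 1.26 TPM in KO at d4. At d0 the 7 naive ESC markers, which identify the ground state, added up to 2179 to 2334 TPM in Ctrl and 2191 to 2339 TPM in KO, and they were still at 956 to 1190.0 TPM and 1048 to 1232 TPM at d4 and at 178 to 209 TPM and 267 to 274 TPM at d6. The 3 trophectoderm markers were at 805 to 1229 TPM in Ctrl and 879 to 1682 TPM in KO at d6, and Ttr, one of the endoderm markers, had no reads at d0 in either genotype. Sums of other marker lists were already lower in KO at d0, without overlap. The neural markers were at 186 to 228 TPM in Ctrl and 102 to 117 TPM in KO. The epiblast markers were at 45.7 to 56.6 TPM and 36.5 to 37.9 TPM, and the trophectoderm markers at 92.4 TPM or more and 64.6 TPM or less. Of these lists 2 of 5, 2 of 4 and 2 of 3 genes were called lower at d0, and 0 higher. The endoderm sums and Meox1 overlapped at d0. The part of these cell types in the results was not tested. In bulk RNA, fewer cells of a type and less RNA per cell cannot be told apart.

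Together, the 73 nuclear members took a smaller part of the mRNA after d0, and more so in Ctrl than in KO at d4. In Ctrl their TPM added up to 19402, 19522 and 18801 in the 3 libraries at d0, to 15421, 14648 and 14251 at d4 and to 15942, 16215 and 15044 at d6. In KO the sums were 20348, 19044 and 20381 at d0, 17713, 17446 and 16815 at d4 and 15719, 17173 and 18557 at d6. At d4 the 3 KO libraries lay above the 3 Ctrl libraries, whereas the genotypes overlapped at d0 and at d6. After median-ratio rescaling they were apart at d6 too, at 13286 to 14340 TPM in Ctrl and 15513 to 18662 TPM in KO. These sums were not tested. The 7 mtDNA members added up to 39575, 34694 and 34533 TPM in Ctrl and 32982, 44851 and 45574 TPM in KO at d0. At d4 they lay the other way round from the nuclear members, at 34457, 39869 and 44365 TPM in Ctrl and 33915, 34016 and 34027 TPM in KO, with every KO library below every Ctrl library. After median-ratio rescaling these groups overlapped (30761 to 39083 TPM and 33385 to 34981 TPM). Over all libraries they held 3.28% to 5.39% of all TPM, more than the nuclear members together.

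**Figure D1:**
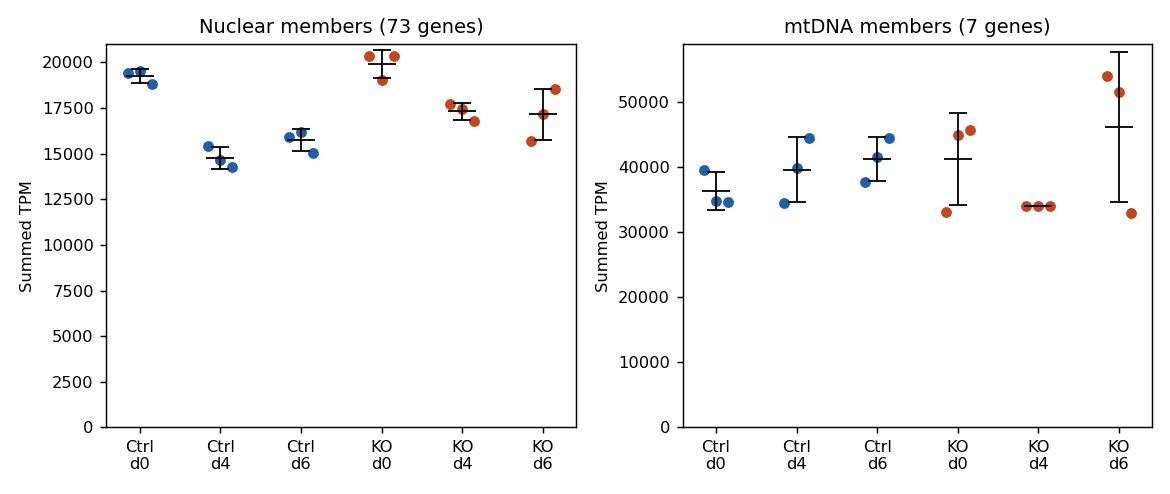
Summed TPM of the 73 nuclear members and of the 7 mtDNA members (vertical axes) by day in Ctrl and KO. Dots are libraries and the bars are the group mean and SD (n = 3). The nuclear sum of Ctrl was 19241 ± 386 at d0 and 14774 ± 595 at d4, and that of KO 19924 ± 762 and 17325 ± 461.

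The lower sum after d0 ran through complexes III, IV and V more than through complex II. In Ctrl, the nuclear members of complex III had mean sums of 1816, 1153 and 1298 TPM on the 3 days, those of complex IV 6810.3, 4800.3 and 5134 TPM, and those of complex V 4163, 3314 and 3035 TPM. Complex I was at 5387, 4587 and 5250.3 TPM, and complex II at 1065, 920 and 1017 TPM. In KO the sums at d0, d4 and d6 were 1796, 1411 and 1469.9 TPM for complex III, 7489, 5682 and 5669 for complex IV, 4237, 3955 and 3511 for complex V, 5344, 5136 and 5469 for complex I, and 1058, 1139.7 and 1032 for complex II. Complex II was thus the one whose mean sum in KO was above its d0 value at d4. After median-ratio rescaling it was below it, at 1192 TPM at d0 and 1139 TPM at d4.

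From d0 to d4, when ESCs left 2i + LIF and formed EBs, 44 of the 80 members fell and 9 rose in Ctrl. Of all genes 67.4% were called in this comparison, 45.1% higher and 22.3% lower, so that the members were called lower more often than all genes and higher less often. The median log2 change was -0.36 over the nuclear members and 0.26 over all genes. In KO 20 members fell and 9 rose, where 56.7% of all genes were called (35.8% higher and 20.9% lower), and the median was -0.11 over the nuclear members and 0.15 over all genes. The libraries of d0 and d4 did not overlap in 61 members in Ctrl and 51 in KO, beside 78.5% and 69.7% of all genes. After median-ratio rescaling 57 members were called lower and 4 higher in Ctrl, where 32.8% of all genes were called higher and 33.6% lower, and 40 members lower and 3 higher in KO, where the shares of all genes were 27.9% and 28.8%. The number called higher in KO was 5, 4 and 4 without KO d0 replicate 1, KO d0 replicate 2 and KO d4 replicate 2.

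By complex, the nuclear members that fell in Ctrl were 15 of 31 in complex I, 2 of 4 in complex II, 5 of 8 in complex III, 10 of 16 in complex IV and 12 of 14 in complex V. In KO they were 4, 0, 4, 6 and 5. The median changes in Ctrl were -0.31, -0.19, -0.44, -0.43 and -0.38 for complexes I to V, and in KO -0.03, 0.08, -0.32, -0.24 and -0.20. Of the 44 members that fell in Ctrl, 16 also fell in KO, 26 were not called there and 2, the complex I assembly factors Ndufaf6 and Ndufaf7, rose. These counts say nothing of a difference between the genotypes, since the difference in change from d0 to d4 was not tested by itself; the comparison of KO with Ctrl at d4 and the change from d0 to d6, both of which were tested, follow.

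**Figure D2:**
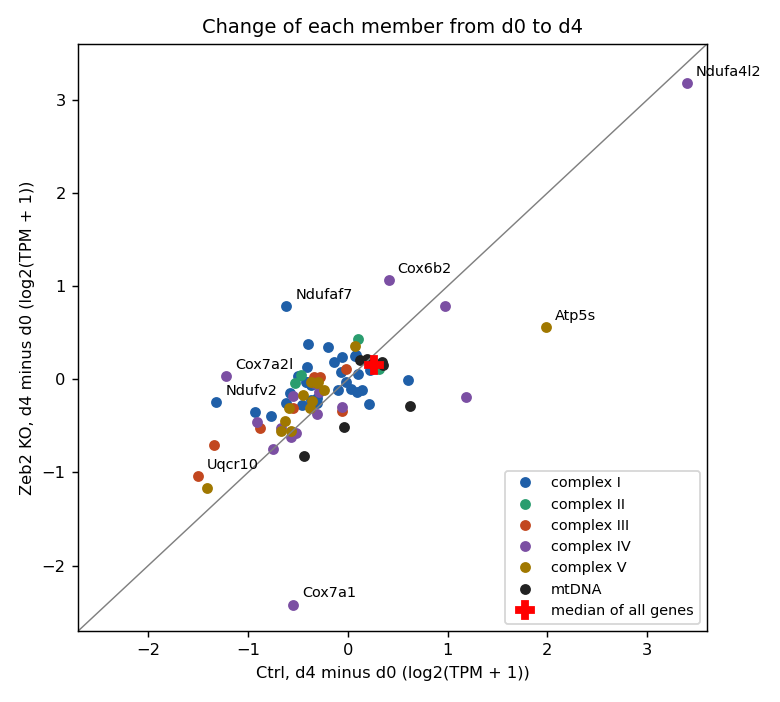
Log2 change from d0 to d4 of each member in Ctrl (horizontal axis) and in KO (vertical axis), on the log2(TPM + 1) scale. Colours mark the complexes, the grey line marks equal change, and the red plus marks the median of all genes (0.26 in Ctrl and 0.15 in KO). Of the 80 members, 70 lie to the left of the plus and 55 above the line.

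KO against Ctrl at d4 was the comparison in which most members differed between the genotypes. Here 29 of 80 members were called higher in KO and 1, Cox7a1, lower. Of all genes 45.5% were called, and the direction was the opposite one, with 12.7% higher and 32.7% lower. The median difference was 0.25 over the nuclear members, -0.22 over the mtDNA members and -0.16 over all genes. All 29 members called higher were nuclear: 11 of 31 in complex I, 3 of 4 in complex II, 5 of 8 in complex III, 5 of 16 in complex IV and 5 of 14 in complex V, with medians of 0.21, 0.43, 0.34, 0.20 and 0.27. The libraries of the genotypes did not overlap in 48 members, 38 of them higher in KO and all of these nuclear, beside 65.7% of all genes. After median-ratio rescaling, which set the median of all genes to 0.00, the median of the nuclear members was 0.42 and 47 members were called higher, where 21% of all genes were called higher and 21.3% lower. Without Ctrl d4 replicate 2, 18 members were called higher.

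At d0 and d6 the genotypes differed in fewer members. At d0, in the ground state, 12 members were called higher in KO and 4 lower, where 27% of all genes were called (10.6% higher and 16.4% lower), and the median of the nuclear members was 0.01 beside -0.07 for all genes. The libraries did not overlap in 30 members, beside 51.5% of all genes. The number higher was 7 without Ctrl d0 replicate 3 and also 7 without KO d0 replicate 3. At d6, 20 members were called higher and 5 lower, where 52.3% of all genes were called (17.9% higher and 34.3% lower), and the median of the nuclear members was 0.10 beside -0.14. The libraries did not overlap in 31 members, beside 63.7% of all genes. Rescaled by the median ratio, 31 were higher and 1 lower at d6, with a median of 0.27 over the nuclear members beside 0.01 over all genes. After quantile normalization 18 were higher and 10 lower. The shares of all genes called at d6 under these alternatives are not given here. The number higher at d6 was 12, 11 and 12 without Ctrl d6 replicate 1, Ctrl d6 replicate 3 and KO d6 replicate 2. Over the 3 days, 49 of the 80 members were called in at least 1 comparison of the genotypes, beside 71.1% of all genes, and 14 were called higher in KO at both d4 and d6, beside 9.25% of all genes.

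**Figure D3:**
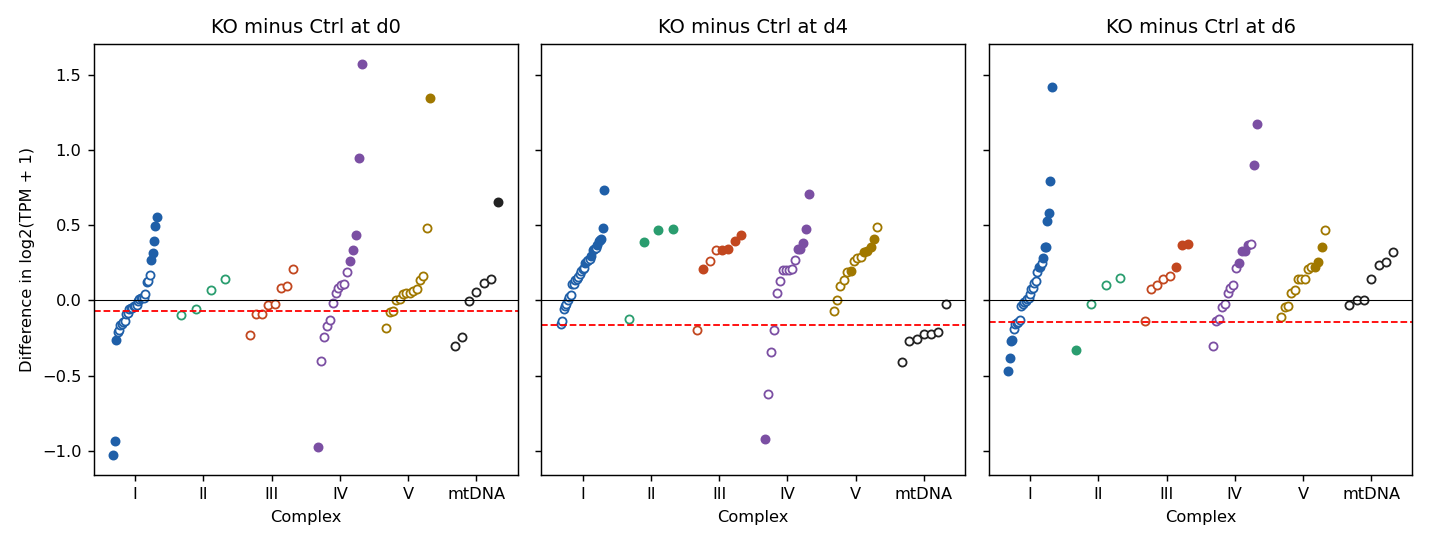
Log2 difference KO minus Ctrl of each member (vertical axis, log2(TPM + 1)) by complex at d0, d4 and d6. Filled points were called at an adjusted p below 0.01 and the red dashed line is the median of all genes. At d4 the points of complexes I to V lie mostly above the line and 29 of them are filled above 0.

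In the promoters of the nuclear members, letters known from respiratory genes were counted. NRF1 and the ETS factor GABP are known to bind many promoters of this chain, and the zinc fingers of Zeb2 are known to bind the E-box CAGGTG. In windows from 250 bases before to 50 bases after the start of the gene (RefSeq, GRCm38.p6), found for 59 of the 73 nuclear members, the NRF1 core GCATGCGC stood on either strand in 9 members (15.3%), beside 6.04% of the 7223 tested genes with a window and 2.71% of all 32851 promoters. The ETS core CCGGAAG stood in 16 (27.1%, beside 18.4% and 8.86%) and CAGGTG in 12 (20.3%, beside 21.9% and 20.2%). Of the members described below, Ndufaf6, Sdhc, Uqcrq, Cox4i1, Cox4i2, Ndufa4l2 and Atp5s had no matched window.

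Members with and without a motif were set side by side by their counts, with no test. Of the members with the NRF1 core 7 of 9 fell from d0 to d4 in Ctrl, beside 30 of 50 without it, and 2 of 9 were higher in KO at d4, beside 21 of 50. For the ETS core these counts were 13 of 16 beside 24 of 43, and 6 of 16 beside 17 of 43. For CAGGTG they were 7 of 12 beside 30 of 47, and 5 of 12 beside 18 of 47. A match of letters is a description and not a site. Upstream stretches of 100 bases from the GRCm38 genome are shown 5′ to 3′ on the strand of the gene, with a motif in capitals where one falls in the stretch, for a gene with each of the 2 respiratory motifs and for 2 members whose changes stand out below and whose stretches hold none of the 3. Sdhd (chr9:50603850-50603949, minus strand) holds the ETS core as its reverse complement. Ndufa6 (chr15:82354323-82354422, minus strand) holds the NRF1 core. Uqcr10 lies at chr11:4704345-4704444 and Cox6b2 at chr7:4753095-4753194, both on the minus strand.
Sdhd: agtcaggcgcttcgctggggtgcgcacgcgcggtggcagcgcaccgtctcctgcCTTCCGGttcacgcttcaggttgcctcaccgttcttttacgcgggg
Ndufa6: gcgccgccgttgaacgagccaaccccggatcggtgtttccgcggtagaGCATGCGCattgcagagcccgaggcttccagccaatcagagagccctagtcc
Uqcr10: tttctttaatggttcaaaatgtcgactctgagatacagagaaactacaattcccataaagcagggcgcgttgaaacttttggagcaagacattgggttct
Cox6b2: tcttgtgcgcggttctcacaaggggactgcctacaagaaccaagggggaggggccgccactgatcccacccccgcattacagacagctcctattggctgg

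In complex I, the largest in number, the accessory subunits, which surround the core that carries out electron transfer, changed in both directions in Ctrl: of 22 in the table, 8 fell and 3 (Ndufa9, Ndufa13 and Ndufb7, named after their values were seen) rose from d0 to d4, where 22.3% of all genes fell and 45.1% rose. With chromosome medians removed these 3 were at -0.35 (adjusted p = 0.00016), -0.47 (adjusted p = 3.43e-06) and -0.08 (adjusted p = 0.349), so that Ndufa9 and Ndufa13 were then called lower, and with neighbour medians removed Ndufa13 was called lower as well (-0.39, adjusted p = 0.00044). The call of Ndufa9 was also lost without any one of Ctrl d0 replicates 1 and 3 and Ctrl d4 replicates 1 and 2 (adjusted p = 0.0137 to 0.0302), and that of Ndufa13 without any one of Ctrl d0 replicates 1 and 3 and Ctrl d4 replicate 1 (adjusted p = 0.0153 to 0.0212). Of the 4 assembly factors, which are not part of the finished complex, 2 fell. At d4, 5 of the 22 accessory subunits and 3 of the 4 assembly factors were higher in KO, beside 12.7% of all genes. At d6, 4 accessory subunits and 3 assembly factors were higher, and 3 accessory subunits lower, beside 17.9% and 34.3% of all genes. For the accessory subunits the share called higher at d6 was thus near that of all genes.

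Ndufaf6 (ENSMUSG00000050323, chromosome 4 from 11051045 to 11076205, minus strand in GRCm38), an assembly factor of complex I, had the largest differences between the genotypes at d4 and d6 among the members called higher. It was at 17.0, 17.0 and 12.4 TPM in Ctrl and 15.3, 15.3 and 13.9 TPM in KO at d0. At d4 it was at 10.8, 12 and 11.4 TPM in Ctrl and 18.7, 20.3 and 19.7 TPM in KO, and at d6 at 11.3, 10.2 and 11.6 TPM and 29.1, 30.4 and 34.3 TPM. The genotypes overlapped at d0 and were apart at d4 and d6, with differences of 0.73 ± 0.11 (adjusted p = 4.06e-05) and 1.42 ± 0.11 (adjusted p = 1.57e-08). It fell from d0 to d4 in Ctrl (-0.40 ± 0.11, adjusted p = 0.00372) and rose in KO, both from d0 to d4 (0.38 ± 0.11, adjusted p = 0.00614) and from d4 to d6 (0.65 ± 0.11, adjusted p = 0.000134). The fall in Ctrl lost its call without any one of Ctrl d0 replicates 1 and 2 and Ctrl d4 replicates 1 and 3 (adjusted p = 0.0114 to 0.0238), and in a fit to the compared groups alone (adjusted p = 0.0283). The rise from d0 to d4 in KO lost it without any one of KO d0 replicates 1 to 3 and KO d4 replicates 2 and 3 (adjusted p = 0.0118 to 0.0277), and in 6 other settings (adjusted p = 0.01 to 0.859), and with neighbour medians removed the change was -0.03 (adjusted p = 0.859).

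Ndufa7, an accessory subunit (ENSMUSG00000041881, chromosome 17 from 33824572 to 33838317, plus strand), was at 91.9, 65.2 and 82.5 TPM in Ctrl and 115, 117 and 102 TPM in KO at d4, and at 104, 97.9 and 95.3 TPM and 135, 136 and 162 TPM at d6. The KO libraries lay above the Ctrl libraries on both days, with differences of 0.48 ± 0.11 (adjusted p = 0.0018) and 0.53 ± 0.11 (adjusted p = 0.000694). The call at d4 was lost without Ctrl d4 replicate 2 (adjusted p = 0.0118) and in a fit to the compared groups alone (0.0112). Ndufa6 (ENSMUSG00000022450, chromosome 15 from 82350140 to 82354322, minus strand), the nuclear complex I member of highest mean level, changed late. It was at 561, 556 and 539 TPM in Ctrl and 577, 563 and 520.4 TPM in KO at d4 and at 572, 608 and 563 and 709, 697 and 715 TPM at d6, where KO was higher by 0.28 ± 0.07 (adjusted p = 0.00162). This call was lost with quantile normalization (adjusted p = 0.168).

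In the other direction, Ndufa3 and Ndufb11, accessory subunits, were lower in KO at d6. Ndufa3 was at 61.3, 79.1 and 67.3 TPM in Ctrl and 44.8, 51.6 and 52.4 TPM in KO, a difference of -0.47 ± 0.10 (adjusted p = 0.00052). Ndufb11, a gene of the X chromosome, was at 240.2, 269.6 and 265 TPM and 181, 206 and 207 TPM, a difference of -0.38 ± 0.08 (adjusted p = 0.000366). The groups did not overlap for either gene, but after median-ratio rescaling the differences were -0.31 and -0.22 and neither was called (adjusted p = 0.0148 and 0.0203). Ndufa3 was at -0.32 with chromosome medians removed (adjusted p = 0.0138) and at -0.23 with neighbour medians removed (adjusted p = 0.14). Ndufa9 fell from d4 to d6 in both genotypes, from 297, 279.9 and 267 to 219, 227 and 208 TPM in Ctrl (-0.37 ± 0.06, adjusted p = 0.000133) and from 311, 325 and 303 to 190.1, 195 and 208 TPM in KO (-0.66 ± 0.06, adjusted p = 3.73e-07). With neighbour medians removed the change in Ctrl was 0.15 and was not called (adjusted p = 0.128).

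In complex II, 3 of the 4 subunits were higher in KO at d4, and the subunit that was not is the catalytic one. Sdhb (ENSMUSG00000009863, chromosome 4 from 140961203 to 140979193, plus strand), the iron-sulfur subunit, was at 135, 124 and 121 TPM in Ctrl and 172, 168 and 159 TPM in KO at d4, a difference of 0.39 ± 0.08 (adjusted p = 0.000715). Sdhc (ENSMUSG00000058076, chromosome 1 from 171127165 to 171150603, minus strand) and Sdhd (ENSMUSG00000000171, chromosome 9 from 50596357 to 50603812, minus strand) anchor the enzyme in the membrane. Sdhc was at 149, 124 and 125 TPM in Ctrl and 202, 186 and 167 TPM in KO (0.47 ± 0.09, adjusted p = 0.000452). Sdhd was at 409, 379 and 375 TPM in Ctrl and 534, 599 and 481 TPM in KO (0.47 ± 0.10, adjusted p = 0.000675). In all 3 genes the KO libraries lay above the Ctrl libraries at d4.

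From d0 to d4 the 3 genes were not called in the same genotype, but the difference in change between the genotypes was not tested. The median change of all genes was 0.26 in Ctrl and 0.15 in KO. Sdhb fell from d0 to d4 in Ctrl (-0.53 ± 0.08, adjusted p = 2.19e-05), from 168, 194 and 186 TPM, and was not called in KO (-0.04). Sdhd likewise fell in Ctrl (-0.47 ± 0.10, adjusted p = 0.000334) and had a change of 0.05 in KO, whereas Sdhc rose in KO (0.43 ± 0.09, adjusted p = 0.00063) and had a change of 0.10 in Ctrl. At d6 the differences of Sdhb, Sdhc and Sdhd were 0.10, -0.02 and 0.15, and none was called. The rise of Sdhc in KO lost its call in 3 other settings (adjusted p = 0.0346 to 0.0619).

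Sdha (ENSMUSG00000021577, chromosome 13 from 74322254 to 74350280, minus strand), the flavoprotein that oxidises succinate, went the other way. It was at 225, 212 and 223 TPM in Ctrl and 233, 240.2 and 220.2 TPM in KO at d0, at 277, 278 and 264 and 246, 249 and 256 TPM at d4, and at 227, 230.2 and 235 and 181, 174 and 195 TPM at d6. At d6 every KO library was under every Ctrl library, with a difference of -0.33 ± 0.05 (adjusted p = 1.94e-05). It rose from d0 to d4 in Ctrl (0.31 ± 0.05, adjusted p = 2.61e-05) and fell from d4 to d6 in both genotypes, by 0.24 in Ctrl and 0.45 in KO on the log2 scale. The rise in Ctrl was 0.01 with median-ratio rescaling (adjusted p = 0.883), -0.01 with chromosome medians removed (adjusted p = 0.867) and 0.10 with neighbour medians removed (adjusted p = 0.112). The difference at d6 was -0.01 (adjusted p = 0.847) when the median deviation of the genes within 5 Mb was taken out library by library, an alternative added once the data had been seen, and -0.13 (adjusted p = 0.054) when that of its whole chromosome was removed.

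The largest falls in complex III from d0 to d4 in Ctrl were those of the small subunits Uqcr10 and Uqcrq. Uqcr10 (ENSMUSG00000059534, chromosome 11 from 4701973 to 4704342, minus strand), whose upstream stretch is shown above, had levels in Ctrl of 450.0, 464 and 444 TPM at d0, 175, 150.0 and 153 TPM at d4 and 164, 195 and 180.3 TPM at d6. In KO it went from 417, 411 and 514 TPM to 215, 218 and 214 and 204, 235 and 262 TPM. It fell from d0 to d4 in both, with log2 changes of -1.50 ± 0.10 (adjusted p = 7.63e-10) in Ctrl and -1.04 ± 0.10 (adjusted p = 7.4e-08) in KO, and was higher in KO at d4 (0.44 ± 0.10, adjusted p = 0.00104) and d6 (0.37 ± 0.10, adjusted p = 0.00294), with no overlap between the genotypes on either day. At d0 the genotypes overlapped. The call at d6 was lost without any one of Ctrl d6 replicate 1 and KO d6 replicates 2 and 3 (adjusted p = 0.0102 to 0.0201), and in a fit to the compared groups alone (adjusted p = 0.019).

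Uqcrq (ENSMUSG00000044894, chromosome 11 from 53427922 to 53430831, minus strand), also known as the ubiquinone-binding protein, moved in the same direction as Uqcr10 in both genotypes. It went from 223, 217 and 211 TPM at d0 to 85.0, 84.6 and 86.7 TPM at d4 in Ctrl (-1.34 ± 0.11, adjusted p = 2.45e-08) and from 202, 171 and 182 to 118, 96.1 and 127 TPM in KO (-0.71 ± 0.11, adjusted p = 4.1e-05). At d4 it was higher in KO by 0.40 ± 0.11 (adjusted p = 0.00741) and at d6, at 112, 112 and 94.6 TPM in Ctrl and 113, 148 and 156 TPM in KO, by 0.37 ± 0.11 (adjusted p = 0.00921). The call at d4 was lost without any one of Ctrl d4 replicates 1 to 3 and KO d4 replicates 1 and 3 (adjusted p = 0.0184 to 0.0422), and without the trend in limma and with replicate number as a block (adjusted p = 0.0116 to 0.0118). The call at d6 was lost without any library other than KO d0 replicate 1, KO d4 replicates 2 and 3 and KO d6 replicate 1 (adjusted p = 0.0102 to 0.0534), and in 4 other settings (adjusted p = 0.0142 to 0.0439). Uqcrfs1, the Rieske iron-sulfur protein and the nuclear complex III member of highest mean level, differed less. It was at 292, 307 and 265 TPM in Ctrl and 331, 333 and 331 TPM in KO at d4, a difference of 0.21 ± 0.06 (adjusted p = 0.00672), and it fell from d0 to d4 in Ctrl (-0.28 ± 0.06, adjusted p = 0.000471). The difference at d4 lost its call without any one of Ctrl d4 replicates 1 and 3 and KO d4 replicates 1 to 3 (adjusted p = 0.0132 to 0.0465), and in 4 other settings (adjusted p = 0.0113 to 0.0293).

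In complex IV, 10 of 16 nuclear members fell from d0 to d4 in Ctrl, and 3 (Cox6b2, Cox7b2 and Ndufa4l2) rose. Not every common subunit fell: Cox4i1 was at -0.06 and was not called (adjusted p = 0.494). With chromosome medians or neighbour medians removed it was at -0.74 and called lower (adjusted p = 1.58e-06 and 2.6e-06). The isoforms known from other tissues did not share a direction: Cox7a1 fell in KO and was not called in Ctrl, and Cox4i2 was called in neither. Ndufa4, the nuclear complex IV member of highest mean level, was at 1046, 1128 and 988 TPM at d0 and 897, 830.1 and 862 TPM at d4 in Ctrl (-0.29 ± 0.07, adjusted p = 0.00152) and at 1106, 1129.7 and 1052 TPM at d4 in KO, higher than Ctrl by 0.34 ± 0.07 (adjusted p = 0.000607). The fall in Ctrl lost its call without Ctrl d0 replicate 2 (adjusted p = 0.0111), and with quantile normalization (adjusted p = 0.122), and the difference at d4 lost it with quantile normalization (adjusted p = 0.0612). Its paralog Ndufa4l2, known from hypoxic cells, was at 3.98, 3.85 and 7.92 TPM at d0 and 69.4, 47.5 and 72.9 TPM at d4 in Ctrl and at 8.99, 0.991 and 3.66 and 31.6, 48.0 and 42.3 TPM in KO. It rose in both genotypes, with log2 changes of 3.40 ± 0.52 (adjusted p = 2.02e-05) and 3.18 ± 0.52 (adjusted p = 5.15e-05), the largest changes among the members. These values rest on 3 to 270 reads per library, and the genotypes were not called different on any day.

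Cox6b1 (ENSMUSG00000036751, chromosome 7 from 30616861 to 30626151, minus strand) and Cox6b2 (ENSMUSG00000051811, chromosome 7 from 4751792 to 4753094, minus strand) encode the common and the testis isoform of the same subunit. Cox6b1 was at 1308, 1277 and 1143 TPM in Ctrl and 1534, 1517 and 1664 TPM in KO at d0, at 824, 663 and 730.1 and 942, 982 and 884 TPM at d4, and at 934, 894 and 891 and 828, 871 and 936 TPM at d6. It fell from d0 to d4 by 0.75 on the log2 scale in both genotypes and was higher in KO at d0 (0.34 ± 0.08, adjusted p = 0.00246) and d4 (0.34 ± 0.08, adjusted p = 0.00128). Cox6b2 was at 104, 102 and 119.7 TPM in Ctrl and 99.9, 115 and 122 TPM in KO at d0, at 138, 139.7 and 155 and 225, 248 and 235 TPM at d4, and at 93.6, 93.9 and 103 and 205, 206 and 143 TPM at d6. It rose from d0 to d4 in Ctrl (0.41 ± 0.12, adjusted p = 0.00479) and in KO (1.07 ± 0.12, adjusted p = 5.91e-07), and was higher in KO at d4 (0.71 ± 0.12, adjusted p = 9.64e-05) and d6 (0.90 ± 0.12, adjusted p = 5.42e-06) without overlap between the genotypes. The call of Cox6b1 at d0 was lost without Ctrl d0 replicate 3 or KO d0 replicate 3 (adjusted p = 0.0148 to 0.0169), and that at d4 with quantile normalization (adjusted p = 0.0965). The rise of Cox6b2 in Ctrl lost its call without any one of Ctrl d0 replicates 1 and 2 and Ctrl d4 replicate 3 (adjusted p = 0.02 to 0.0245), and in 3 other settings (adjusted p = 0.016 to 0.386).

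Cox7a1 (ENSMUSG00000074218, chromosome 7 from 30184144 to 30186078, plus strand), known as the isoform of heart and skeletal muscle, reversed its difference between d0 and d4. At d0 it was at 163, 187 and 144 TPM in Ctrl and 312, 299 and 345 TPM in KO, higher in KO by 0.95 ± 0.20 (adjusted p = 0.00109). At d4 it was at 134, 99.0 and 106 TPM in Ctrl and 50.9, 76.2 and 51.9 TPM in KO, lower in KO, with a log2 difference of -0.92 ± 0.20 (adjusted p = 0.000814). The groups did not overlap on either day, and in KO the gene fell from d0 to d4 with a log2 change of -2.42 ± 0.20 (adjusted p = 1.56e-08). At d6 it was at 93.8, 65.1 and 55.8 and 65.8, 77.9 and 51.0 TPM, a difference of -0.13 that was not called. Its fall from d4 to d6 in Ctrl (-0.67 ± 0.20, adjusted p = 0.00789) lost its call without any one of 7 libraries (Ctrl d0 replicate 1, Ctrl d4 replicates 1 and 3, Ctrl d6 replicates 2 and 3 and KO d0 replicates 1 and 2, adjusted p = 0.0101 to 0.0477) and in 3 other settings.

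The other isoform of this subunit, Cox7a2, was at 652, 704 and 596 TPM in Ctrl and 645, 665 and 759.6 TPM in KO at d0. It was at 529, 509.8 and 499 TPM in Ctrl and 718, 637 and 652 TPM in KO at d4 (0.38 ± 0.08, adjusted p = 0.000619) and at 475, 552 and 510.1 and 622, 622 and 688 TPM at d6 (0.33 ± 0.08, adjusted p = 0.00155), above the Ctrl libraries on both days. The call at d6 was lost without Ctrl d6 replicate 1 (adjusted p = 0.0108), and with quantile normalization (adjusted p = 0.0552). Cox7a1 and Cox7a2 thus differed in opposite directions at d4.

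Cox4i1 was at 458, 479 and 438 TPM in Ctrl and 652, 576 and 635 TPM in KO at d0, higher in KO by 0.44 ± 0.08 (adjusted p = 0.000431), and fell from d4 to d6 in both genotypes (-0.44 and -0.59). With neighbour medians removed these 2 changes were -0.03 and -0.21 (adjusted p = 0.845 and 0.0788). Its isoform Cox4i2, known from lung and hypoxia, was called in no comparison, with values up to 6.06 TPM from 0 to 23 reads per library. Cox7b2, the testis isoform of Cox7b, was higher in KO at d0 (1.58 ± 0.29, adjusted p = 0.000387) and d6 (1.18 ± 0.29, adjusted p = 0.0019), at 1.23, 0.367 and 0.818 TPM in Ctrl and 5.39, 4.00 and 3.64 TPM in KO at d0 and at 2.88, 2.49 and 2.25 and 7.73, 6.29 and 6.97 TPM at d6, from 0 to 18 reads per library. The deposited values include 1 added read for each gene, which weighs on genes as low as these, and their log2 differences depend on the pseudocount. The rise of Cox7b2 from d0 to d4 in Ctrl (1.18 ± 0.29, adjusted p = 0.00134) was 0.33 after quantile normalization (adjusted p = 0.34) and 0.79 with neighbour medians removed (adjusted p = 0.0228). Cox6a1 and Cox8a, common subunits, fell from d0 to d4 in Ctrl by 0.56 and 0.90 on the log2 scale, and their genotypes were called different on no day. Cox6a2, Cox8c and Atp5g2, isoforms of the same families, were not analysed here.

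**Figure D4:**
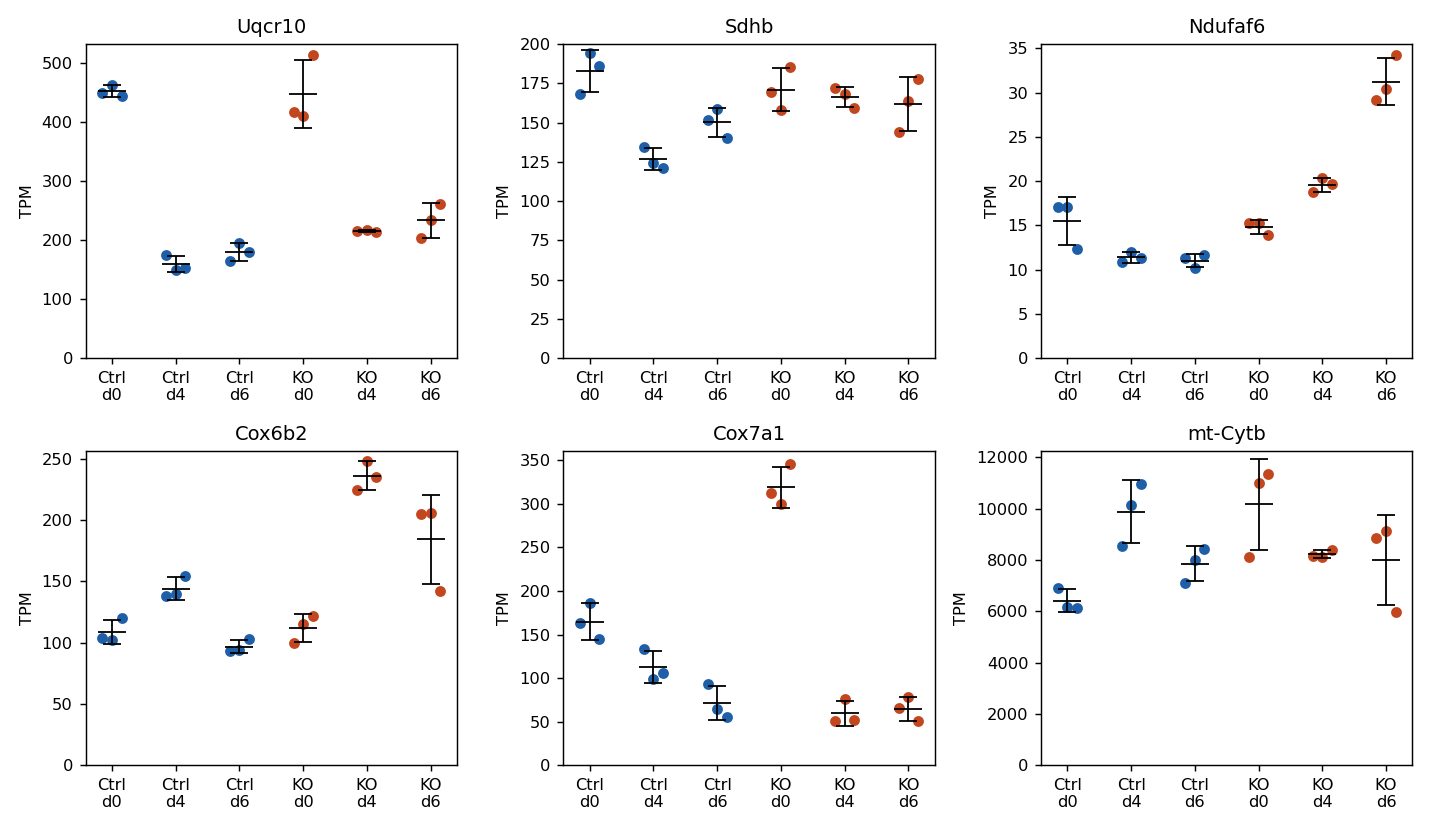
TPM (vertical axes) in each library of 6 members on d0, d4 and d6. Dots are libraries and the bars are the group mean and SD (n = 3). Ndufaf6 and Cox6b2 lie above Ctrl in the KO libraries of d4 and d6, and Cox7a1 lies above Ctrl at d0 and below it at d4.

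Complex V had the largest share of members that fell from d0 to d4 in Ctrl, with 12 of 14, and 1, Atp5s, rose. Atp5b (ENSMUSG00000025393, chromosome 10 from 128083273 to 128090391, plus strand), the catalytic beta subunit and the nuclear complex V member of highest mean level, was at 1374, 1354 and 1326 TPM in Ctrl at d0, 1115, 1130.4 and 1024 at d4 and 845, 830.5 and 799 at d6. In KO it was at 1349, 1231 and 1268 TPM at d0, 1273, 1219 and 1243 TPM at d4 and 904, 949 and 1039 TPM at d6. It fell in both steps in Ctrl (-0.31 ± 0.06, adjusted p = 0.000134 and -0.40 ± 0.06, adjusted p = 2.26e-05) and from d4 to d6 in KO (-0.37 ± 0.06, adjusted p = 5.53e-05), and was higher in KO at d4 (0.19 ± 0.06, adjusted p = 0.00933) and d6 (0.22 ± 0.06, adjusted p = 0.00313). The call at d4 was lost without any library other than KO d0 replicates 1 and 2 and KO d6 replicates 1 and 3 (adjusted p = 0.0111 to 0.0563), and in 5 other settings (adjusted p = 0.0105 to 0.876), and that at d6 without Ctrl d6 replicate 3 or KO d6 replicate 3 (adjusted p = 0.0165 to 0.0186), and with quantile normalization and in a fit to the compared groups alone (adjusted p = 0.0354 to 0.864). After quantile normalization both differences were -0.01. The fall from d0 to d4 in Ctrl lost its call with quantile normalization (adjusted p = 0.0256).

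Atp5g1 and Atp5g3 encode the same mature subunit c of the rotor ring from different genes. Atp5g3 was the abundant one, at 449, 434 and 457 TPM in Ctrl at d0 and 368, 346 and 329 TPM at d4 (-0.36 ± 0.08, adjusted p = 0.000861). Atp5g1 was at 10.5, 11.7 and 9.05 TPM and 3.41, 2.81 and 3.68 TPM (-1.41 ± 0.16, adjusted p = 6.25e-07) and fell as well in KO, from 8.60, 10.2 and 14.2 to 4.78, 4.25 and 3.75 TPM (-1.17 ± 0.16, adjusted p = 6.94e-06). Neither was called different between the genotypes on any day.

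A few differences at d0 were shared with the neighbours of the gene on the chromosome. Ndufv2 (ENSMUSG00000024099, chromosome 17 from 66078638 to 66101559, minus strand), a core subunit of complex I, Ndufaf7 (ENSMUSG00000024082, chromosome 17 from 78937136 to 78948052, plus strand), an assembly factor that methylates one of its subunits, and Cox7a2l (ENSMUSG00000024248, chromosome 17 from 83501918 to 83517330, minus strand), a factor for supercomplexes of complexes III and IV, are all on chromosome 17. At d0 Ndufv2 was at 212, 209 and 190.2 TPM in Ctrl and 109.7, 94.4 and 115 TPM in KO, a difference of -0.93 ± 0.08 (adjusted p = 2.61e-07). Ndufaf7 was at 47.7, 47.8 and 41.4 TPM and 21.7, 19.4 and 24.4 TPM (-1.03 ± 0.10, adjusted p = 1.71e-06), and Cox7a2l at 163, 156 and 162 TPM and 85.9, 81.1 and 76.1 TPM (-0.98 ± 0.09, adjusted p = 6.55e-07). In each of the 3 genes the KO libraries were near one another and well below the Ctrl libraries. The other genes within 5 Mb had median differences of -1.11 (23 genes), -0.90 (45 genes) and -0.99 (54 genes).

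When the median deviation of these neighbours was removed from each library, the differences at d0 were 0.08 (adjusted p = 0.601), -0.12 (0.468) and -0.02 (0.88), and no member was called lower in KO at d0. As deposited, 4 members were called lower at d0. The levels of Ndufv2 in Ctrl, 86.8, 77.0 and 79.9 TPM at d4 and 174, 189.6 and 189 TPM at d6, and in KO, 93.9, 85.5 and 89.3 TPM at d4 and 164, 185 and 189 TPM at d6, moved in the same direction as these neighbours in 3 of the 4 steps. The median change of the neighbours was -0.73 from d0 to d4 in Ctrl, 0.93 in Ctrl and 1.02 in KO from d4 to d6, and 0.13 from d0 to d4 in KO, where Ndufv2 was at -0.24 (adjusted p = 0.0115) and, with the neighbours removed, called lower at -0.41 (adjusted p = 0.00231). Its fall from d0 to d4 in Ctrl kept its call with the neighbours removed (-0.75, adjusted p = 6.85e-06). With the neighbours removed, the change of Ndufv2 from d4 to d6 was 0.30 in Ctrl (adjusted p = 0.0232) and -0.09 in KO (adjusted p = 0.488), that of Ndufaf7 in Ctrl was 0.15 (adjusted p = 0.263) and that of Cox7a2l in Ctrl was 0.29 (adjusted p = 0.0131). In KO the last 2 genes kept their call, at 0.51 (adjusted p = 0.00133) and 0.37 (adjusted p = 0.00303). Ndufaf7 and Cox7a2l were higher in KO at d6 (0.80 ± 0.10, adjusted p = 5.09e-06 and 0.33 ± 0.09, adjusted p = 0.00418), where their neighbours had medians of -0.05 each. The call of Cox7a2l at d6 was lost without any one of Ctrl d6 replicates 2 and 3 and KO d6 replicates 2 and 3 (adjusted p = 0.0127 to 0.0244). After the neighbours were removed the 2 genes were at 0.91 (adjusted p = 2.87e-06) and 0.45 (adjusted p = 0.000403). What the shared shift of the region comes from was not tested.

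On other chromosomes, Atp5s (ENSMUSG00000054894, chromosome 12 from 69724950 to 69744660, plus strand), coupling factor B, was at 8.53, 12.3 and 10.4 TPM in Ctrl and 28.3, 28.0 and 27.2 TPM in KO at d0, higher in KO by 1.35 ± 0.17 (adjusted p = 1.35e-05). Its 55 neighbours had a median of 0.51, and with them removed the difference was 0.91 (adjusted p = 0.000422). It rose from d0 to d4 to 47.5, 43.7 and 40.4 TPM in Ctrl (1.98 ± 0.17, adjusted p = 2.37e-08) and 41.8, 44.2 and 38.9 TPM in KO (0.56 ± 0.17, adjusted p = 0.00788). With neighbour medians removed the rise in Ctrl was 1.18 (adjusted p = 4.64e-06). The rise in KO lost its call without any one of Ctrl d0 replicate 3, Ctrl d4 replicate 2, Ctrl d6 replicate 3, KO d0 replicates 1 to 3 and KO d4 replicates 1 to 3 (adjusted p = 0.0103 to 0.03), and in 6 other settings (adjusted p = 0.0101 to 0.08). Ndufb7 and Cox4i1, both on chromosome 8, were higher in KO at d0 by 0.55 and 0.44, beside neighbour medians of 0.42 (83 genes) and 0.24 (85 genes), and with these removed by 0.14 (adjusted p = 0.184) and 0.16 (adjusted p = 0.225). Medians of whole chromosomes were shifted too. At d0 the median difference was 0.36 over chromosome 12 (440 genes) and 0.33 over chromosome 8 (668 genes), beside -0.07 over all genes. In Ctrl, chromosomes 12, 8 and 6 had median changes of 0.73, 0.66 and 0.60 from d0 to d4, beside 0.26. From d4 to d6 these were -0.42, -0.44 and -0.22, beside 0.04. The source of these shifts was not tested. At d4, removing the neighbours raised the number of members higher in KO from 29 to 41, and at d6 it gave 29 higher and 1 lower. This removal moves all genes as well, and the shares of all genes called after it are not given here. These counts are therefore not set against the background.

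**Figure D5:**
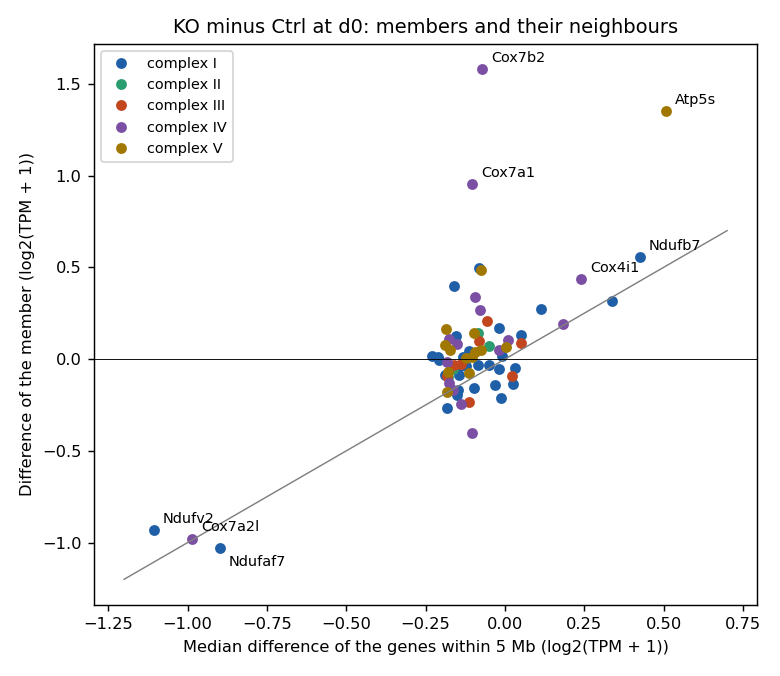
Log2 difference KO minus Ctrl at d0 of each nuclear member (vertical axis) against the median difference of the genes within 5 Mb (horizontal axis), both on the log2(TPM + 1) scale. Colours mark the complexes and the grey line marks equality. Ndufv2, Ndufaf7 and Cox7a2l lie at the lower left beside the line, and the 7 mtDNA members are not shown.

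From d4 to d6, when retinoic acid was present, fewer members changed. In Ctrl 13 rose and 8 fell, where 44.1% of all genes were called (22.6% higher and 21.5% lower), and the median was 0.12 over the members beside 0.04 over all genes. In KO 13 rose and 8 fell as well, where 41.4% of all genes were called (21.5% and 19.9%), and the median was -0.01 beside 0.03. The nuclear members of complex I supplied 7 of the members that rose in Ctrl and 7 in KO. mtDNA supplied 0 in Ctrl and 4 in KO, and these 4 belong to complex I as well. The number that fell in Ctrl was 5 without Ctrl d4 replicate 1 or Ctrl d6 replicate 2, and the number that rose in KO was 8 without KO d6 replicate 2. The largest rises in both genotypes were those of Ndufaf7, Ndufv2 and Cox7a2l: 0.92, 1.17 and 1.15 in Ctrl and 1.35, 0.99 and 1.21 in KO.

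The change from d0 to d6 was compared between the genotypes by a test of the difference in change. Of the 80 members 10 were called higher and 11 lower in KO than in Ctrl, where 43.7% of all genes were called (17.8% higher and 25.9% lower). After median-ratio rescaling these counts were 16 and 6, with a median of 0.21 over the members beside 0.03 over all genes. The shares of all genes called after this rescaling are not given here, so that these counts are not set against the background. By complex and without rescaling, 6 were higher and 6 lower in complex I, 0 and 1 in complex II, 1 and 0 in complex III, 2 and 3 in complex IV and 1 and 1 in complex V. The largest were Ndufaf7 (1.83 ± 0.15, adjusted p = 4.12e-08), Ndufaf6 (1.47 ± 0.16, adjusted p = 1.02e-06) and Cox7a2l (1.31 ± 0.13, adjusted p = 3.63e-07) upwards, and Atp5s (-1.30 ± 0.24, adjusted p = 0.000238), Cox7a1 (-1.08 ± 0.28, adjusted p = 0.0035) and Ndufb7 (-0.71 ± 0.10, adjusted p = 1.57e-05) downwards. The call of Cox7a1 was lost without Ctrl d0 replicate 3 (adjusted p = 0.0108) or KO d6 replicate 3 (0.0109). The calls of Atp5s (-0.74, adjusted p = 0.0105) and Ndufb7 (-0.21, adjusted p = 0.108) were lost with neighbour medians removed, and with chromosome medians removed (adjusted p = 0.0128 and 0.171). With neighbours removed, Ndufaf7 was at 1.03 (adjusted p = 4.69e-05), Cox7a2l at 0.47 (adjusted p = 0.0052) and Ndufv2, at 0.90 before, at -0.06 (adjusted p = 0.766). The number higher was 6 without Ctrl d0 replicate 1 or Ctrl d6 replicate 3, and the number lower was 6 without Ctrl d0 replicate 3 and 7 without Ctrl d6 replicate 1 or KO d0 replicate 3.

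The 7 mtDNA members had the highest mean levels of the chain, each above those of the nuclear members. They are transcribed from both strands of the circular genome as long precursors that are then cut. The table holds mt-Nd1, mt-Nd2, mt-Nd4, mt-Nd5 and mt-Nd6 of complex I, mt-Cytb of complex III and mt-Co1 of complex IV, and mtDNA genes outside it were not analysed here. Over the libraries of KO at d6 they added up to 53894, 51501 and 32841 TPM, with replicate 3 far below the other 2. This library did not have a low sum of nuclear members: at 18557 TPM it had the highest of its group.

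mt-Cytb, the cytochrome b of complex III, was at 6919, 6166 and 6131 TPM in Ctrl and 8134, 11016 and 11352 TPM in KO at d0. The groups did not overlap, and the difference was 0.65 ± 0.16 (adjusted p = 0.0034). This call was lost without any one of Ctrl d0 replicates 2 and 3 and KO d0 replicates 2 and 3 (adjusted p = 0.0136 to 0.0198) and in a fit to the compared groups alone (0.0123). In Ctrl it rose from d0 to d4 (0.62 ± 0.16, adjusted p = 0.00188), to 8535, 10124 and 10964 TPM, and in KO it was at 8171, 8129 and 8398 TPM at d4 (-0.29, not called). The rise in Ctrl lost its call without Ctrl d4 replicate 3 (adjusted p = 0.0119), and with median-ratio rescaling (adjusted p = 0.0751).

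Ratios within a library do not depend on how much mtDNA-encoded RNA it holds. The ratio of mt-Cytb to mt-Co1, the subunit of complex IV that reduces oxygen, had a mean of 0.960 in Ctrl and 1.37 in KO at d0, 1.16 and 0.986 at d4, and 0.837 and 0.671 at d6. Relative to mt-Nd1, mt-Cytb was at 0.541 to 0.560 in the Ctrl libraries and 0.781 to 0.829 in the KO libraries at d0, with no overlap, and at 1.06 to 1.21 in Ctrl and 1.10 to 1.24 in KO at d4. The mt-Nd6 to mt-Nd5 ratio stayed between 1.04 and 1.16 over all libraries. These 2 genes lie on opposite strands and overlap at their ends (mtDNA positions 11742 to 13565 and 13552 to 14070). Whether the counting used the strand is not given in the sources used here. If it did not, reads from the precursor of the other strand cannot be told apart from those of a gene over its whole length. The level, ratio and changes of mt-Nd6 are uncertain to that extent.

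mt-Nd1 was at 9808, 14109.7 and 14232 TPM at d0 and 6572, 7359.7 and 7345 TPM at d4 in KO, and fell with a log2 change of -0.82 ± 0.18 (adjusted p = 0.000843), and its change in Ctrl was -0.44 (not called). From d4 to d6 in KO 4 of the 7 rose, beside 21.5% of all genes: mt-Nd2 (0.60 ± 0.18, adjusted p = 0.00873), mt-Nd4 (0.51 ± 0.15, adjusted p = 0.00854), mt-Nd5 (0.69 ± 0.16, adjusted p = 0.00176) and mt-Nd6 (0.75 ± 0.18, adjusted p = 0.00187). mt-Nd5 went from 2760.0, 2537 and 2523 TPM to 5228, 4766 and 2994 TPM, and mt-Nd4 from 1759, 1705 and 1676 to 2944, 2853 and 1741 TPM, where replicate 3 lay within the d4 values. All 4 calls were lost without KO d6 replicate 1 and without KO d6 replicate 2. That of mt-Nd2 lost its call without any library other than Ctrl d0 replicate 1, Ctrl d4 replicates 1 and 3, KO d0 replicates 1 and 3 and KO d6 replicate 3 (adjusted p = 0.0104 to 0.0503), and in 5 other settings (adjusted p = 0.0104 to 0.0472). That of mt-Nd4 lost it without any library other than Ctrl d0 replicates 1 and 2, Ctrl d4 replicate 1, KO d0 replicate 1 and KO d6 replicate 3 (adjusted p = 0.0104 to 0.0508), and in 5 other settings (adjusted p = 0.0101 to 0.0664). That of mt-Nd5 lost it without KO d6 replicates 1 or 2 (adjusted p = 0.0107 to 0.0117), and in a fit to the compared groups alone (adjusted p = 0.0272). That of mt-Nd6 lost it without KO d6 replicates 1 or 2 (adjusted p = 0.0115 to 0.0116), and with quantile normalization and in a fit to the compared groups alone (adjusted p = 0.0153 to 0.0251). None of the 7 was called between the genotypes at d4 or d6. Without KO d6 replicate 3, the library with the low mtDNA sum, mt-Co1 (0.54, adjusted p = 0.00221), mt-Nd4 (0.39, 0.00255), mt-Nd5 (0.48, 0.00219) and mt-Nd6 (0.51, 0.00547) were called higher in KO at d6. With all libraries mt-Co1 was at 8332, 9417 and 10444 TPM in Ctrl and 13856, 13305 and 8656 TPM in KO, a difference of 0.32 ± 0.16 (adjusted p = 0.0893).

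Other genes of the mitochondrion were counted in the same way. The genes of mitochondrial ribosomal proteins (57, all symbols beginning with Mrp followed by l or s), which translate the mtDNA-encoded subunits, moved in the same direction as the nuclear members: 37 fell and 1 rose from d0 to d4 in Ctrl, 20 fell and 5 rose in KO, and 24 were higher and 0 lower in KO at d4 and 23 and 0 at d6, where all genes were called lower more often than higher. Of all genes, 22.3% fell and 45.1% rose from d0 to d4 in Ctrl, and 20.9% fell and 35.8% rose in KO. In KO against Ctrl, 12.7% of all genes were higher and 32.7% lower at d4, and 17.9% and 34.3% at d6. Of the 20 assembly factors and carriers outside the name rule that were in the table (39 were listed), 5 were higher and 2 lower in KO at d4 and 6 and 4 at d6. At d6 the largest were the ADP/ATP carrier Slc25a5 (0.59 ± 0.08, adjusted p = 5.28e-06) and the complex I assembly factor Nubpl (0.58 ± 0.12, adjusted p = 0.000675), higher, and the complex IV assembly factor Coa5 (-0.57 ± 0.07, adjusted p = 1.48e-06) and the carrier isoform Slc25a4 (-0.39 ± 0.07, adjusted p = 8.04e-05), lower.

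Of 12 genes of the citric acid cycle and pyruvate dehydrogenase in the table (17 listed), which feed the chain with NADH and succinate, 5 were higher and 0 lower in KO at d4 and 4 and 1 at d6, with Idh3a (0.92 ± 0.06, adjusted p = 7.38e-10) and Pdhb (0.45 ± 0.05, adjusted p = 1.95e-06) highest and Dld (-0.21 ± 0.06, adjusted p = 0.00483) the one that was lower. Of 10 genes for mitochondrial RNA synthesis and upkeep (25 listed), 3 were higher and 1 lower at d4 and 2 and 1 at d6, which were Slirp (0.26 ± 0.08, adjusted p = 0.00725) and Lrpprc (0.21 ± 0.06, adjusted p = 0.00592), partners in the stability of mitochondrial mRNA, and the mtDNA polymerase Polg (-0.63 ± 0.08, adjusted p = 5.17e-06). Of 5 nuclear regulators of respiratory genes (10 listed), 1 was higher and 1 lower at d4 and Hif1a (-0.25 ± 0.07, adjusted p = 0.0044) was lower at d6. The shares of all genes were 12.7% higher and 32.7% lower at d4 and 17.9% and 34.3% at d6. For mitochondrial RNA synthesis and upkeep, 2 of 10 genes higher at d6 were thus near the share of all genes.

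The genes of the cytosolic ribosome were set beside them. Of 81 such genes, 22 fell and 7 rose from d0 to d4 in Ctrl, beside 22.3% and 45.1% of all genes. The share that fell was thus near that of all genes, but the share that rose was below it. Their median change was -0.22, beside 0.26 for all genes and -0.36 for the nuclear members of the chain. At d4, 36 were higher and 2 lower in KO, beside 12.7% and 32.7% of all genes. At d6 the counts were 39 and 3, beside 17.9% and 34.3%. The medians at d4 and d6 were 0.33 and 0.29 beside 0.25 and 0.10 for the nuclear members of the chain. Across all 8 comparisons, 7 of the 80 members were called in none, beside 9.21% of all genes.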

How the data were processed

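RNA-seq libraries of Zeb2 KO and Ctrl mouse ESCs were analysed from the deposited TPM table. The authors aligned single reads of 36 bases with TopHat2 2.0.13 to GRCm38 (mm10), counted them per gene with featureCounts 1.4.6 and deposited TPM values after filtering, and their own tests were made with DESeq2. The deposited table also holds 3 score columns per gene (measures of variance that the authors computed over all libraries), which were not used. Of 11046 entries 81 were repeats, and the first of each was kept. Members were matched by symbol and biotype, which removed 2 pseudogenes with matching names.

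The deposited TPM values were analysed as log2(TPM + 1) with limma (version 3.58.1, R 4.3.3; linear model, contrasts and moderated test with a trend in mean expression, 1 mean for each of 6 groups of 3 libraries), with Benjamini-Hochberg adjustment over all 10965 genes. Whole reads were recovered for all 10965 genes (within 1e-06), with 1 read added per gene, and gave the depth of 9622622 to 15617675 reads per library that limits low genes. Sums, figures and motif counts used Python 3.11.15 (pandas 2.3.3, numpy 2.4.6, matplotlib 3.10.9). Gene coordinates were those of GENCODE M21, and promoter windows came from RefSeq (GRCm38.p6). The steps were tested on simulated data.

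Named are all mtDNA members, the Sdh genes, the nuclear member of highest mean TPM in each complex, the members of the isoform families, and in each comparison and direction the 3 called members with the largest change and no overlap between the groups, with Zeb2. Other lists are given by counts, with their largest called genes at d6. The alternatives were pseudocounts of 0.1 and 5 TPM, a minimum mean of 10 TPM, median-ratio rescaling, quantile normalization, rescaling without the mtDNA genes, removal of chromosome medians, eBayes without trend, a fit to the compared groups, a replicate block, an adjusted p below 0.05, voom on the recovered reads and leaving out each library. Removing the medians of neighbours (at least 10 genes within 5 Mb) was chosen after seeing the data. The members and lists were chosen with earlier results of these data known. Results of 1 member by name are not reported here.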

Additional observations from a re-analysis of the deposited data

Results flagged for a closer look

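The change from d0 to d6 differed between KO and Ctrl, by a test of the difference in change itself (limma, adjusted p below 0.01), for 10 members upwards and 11 downwards. On the log2 scale, as the change in KO minus that in Ctrl, the upward values among the members named by the rule were 1.83 for Ndufaf7, 1.47 for Ndufaf6, 1.31 for Cox7a2l, 0.90 for Ndufv2, 0.86 for Cox6b2, 0.61 for Uqcrq, 0.59 for Ndufa7 and 0.30 for Atp5b. The downward values among them were -1.30 for Atp5s, -1.08 for Cox7a1, -0.71 for Ndufb7, -0.55 for Ndufb11, -0.41 for Ndufa9, -0.40 for Sdha, -0.39 for Cox6b1 and -0.38 for Cox4i1. With neighbour medians removed, Ndufaf7 (1.03, adjusted p = 4.69e-05) and Cox7a2l (0.47, adjusted p = 0.0052) were still called and Ndufv2 (-0.06, adjusted p = 0.766) was not. Cox4i1 turned to 0.12 (adjusted p = 0.491) with neighbour medians and to 0.14 (adjusted p = 0.364) with chromosome medians removed. Ndufa9 was at -0.28 (adjusted p = 0.0373) and -0.08 (adjusted p = 0.496) under these alternatives, and Sdha at -0.12 (adjusted p = 0.244) and -0.26 (adjusted p = 0.0121).

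Several of these calls rested on single libraries or settings. That of Atp5b was lost without any one of Ctrl d0 replicates 1 and 2, Ctrl d6 replicates 2 and 3, KO d0 replicates 2 and 3 and KO d6 replicate 3 (adjusted p = 0.011 to 0.0164), and in 3 other settings (adjusted p = 0.01 to 0.267). That of Uqcrq was lost without any one of Ctrl d0 replicate 1, Ctrl d6 replicate 3, KO d0 replicates 2 and 3 and KO d6 replicates 2 and 3 (adjusted p = 0.0102 to 0.0145), and with neighbour medians removed (adjusted p = 0.0188). That of Ndufa7 was lost without any one of Ctrl d0 replicates 1 and 2, Ctrl d6 replicates 2 and 3, KO d0 replicates 2 and 3 and KO d6 replicate 3 (adjusted p = 0.0102 to 0.0175), and with chromosome medians removed (adjusted p = 0.0391). Cox6b1 lost its call without any one of Ctrl d0 replicate 3, Ctrl d6 replicates 1 to 3, KO d0 replicates 1 and 3 and KO d6 replicates 1 and 2 (adjusted p = 0.0103 to 0.0213), and in 6 other settings (adjusted p = 0.0104 to 0.0707). Cox4i1 lost its call without any library other than Ctrl d0 replicate 2, Ctrl d4 replicates 1 and 2, Ctrl d6 replicate 3, KO d0 replicate 2, KO d4 replicate 3 and KO d6 replicate 3 (adjusted p = 0.0103 to 0.0243), and in 7 other settings (adjusted p = 0.0141 to 0.491). Ndufa9 lost its call also with median-ratio rescaling (adjusted p = 0.0178).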

How the results depend on the processing

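Of 113 differences called and given above, 53 kept their call and direction under every alternative, of 31, in which the gene was kept. The minimum mean of 10 TPM left out Atp5g1 and Cox7b2. Of 496 counts of members, 441 were within 1.5 times the count given above. The cause of the differences below was not tested. Numbers are members called, and the shares of all genes called under the same alternatives are not given beside them here. Median-ratio rescaling gave 47 higher in KO at d4, 31 higher and 1 lower at d6, 4 higher in Ctrl from d0 to d4, 3 higher and 40 lower in KO from d0 to d4, and 16 higher and 6 lower for the change from d0 to d6. Quantile normalization gave 4 lower at d4, 10 lower at d6 and 22 higher in Ctrl from d4 to d6. Removing chromosome medians gave 44 higher at d4, 33 higher and 1 lower at d6, 4 higher in Ctrl and 3 higher and 38 lower in KO from d0 to d4, 5 lower in Ctrl from d4 to d6 and 2 lower for the change. Removing neighbour medians, chosen after seeing the data, gave 0 lower at d0, 1 lower at d6, 4 higher in Ctrl and 4 higher and 31 lower in KO from d0 to d4, 3 lower in Ctrl and 8 higher in KO from d4 to d6 and 2 lower for the change. A fit to the compared groups gave 10 higher at d6 and 7 higher and 5 lower in KO from d4 to d6. Voom gave 3 lower at d6 and 22 higher in Ctrl from d4 to d6. An adjusted p below 0.05 gave 3 lower at d4, 25 higher in Ctrl from d4 to d6, 14 higher in KO from d0 to d4, 23 higher and 15 lower in KO from d4 to d6 and 16 higher for the change.

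With 1 library left out, the counts ranged from 7 to 13 higher at d0, 18 to 31 higher at d4, 11 to 22 higher at d6, 5 to 9 lower in Ctrl from d4 to d6, 4 to 9 higher in KO from d0 to d4, 8 to 16 higher in KO from d4 to d6, and 6 to 13 higher and 6 to 11 lower for the change. With replicate number as a block, 9 rose and 44 fell in Ctrl from d0 to d4, and 12 were higher and 4 lower in KO at d0, 25 and 1 at d4 and 17 and 5 at d6. Libraries of the same number had correlations of their deviations from -0.08 to 0.24, which were above 0.1 in 13 of 14 pairs of libraries numbered 1 or 2 and in 0 of 7 pairs numbered 3, so that the numbers were not taken to pair the samples. Each library numbered 1 or 2 correlated best with its own number, a hint from the data and not from the design.

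Median-ratio rescaling gave mean sums of 39582 TPM (Ctrl d0) and 36547 TPM (Ctrl d6) for the mtDNA members, and of 20989 (Ctrl d0), 13080 (Ctrl d4), 13966 (Ctrl d6) and 22438 TPM (KO d0) for the nuclear members. Quantile normalization gave 34785 TPM (KO d4) for the mtDNA members, and 18541 (Ctrl d0) and 17038 TPM (Ctrl d6) for the nuclear members.

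Over all members, 19 of the 216 called differences turned their direction under at least 1 alternative, and 3 of them were then called: those of Ndufa9 (-0.35 with chromosome medians removed) and Ndufa13 (-0.47, and -0.39 with neighbour medians removed) in Ctrl from d0 to d4, and that of Ndufb7 in Ctrl from d4 to d6 (0.30 with neighbour medians removed). With median-ratio rescaling, Ndufa9 was at -0.081 and Ndufa13 at -0.088 in Ctrl from d0 to d4, and neither was called. The other differences given above that turned lost their call. With neighbour medians removed, Ndufv2 was at 0.081 in KO against Ctrl at d0, -0.092 in KO from d4 to d6 and -0.057 for the change, Ndufaf6 at -0.029 in KO from d0 to d4 and Ndufa9 at -0.096 in Ctrl from d0 to d4 and 0.15 from d4 to d6 and Cox4i1 at 0.12 for the change. With chromosome medians removed, Cox4i1 was at 0.0062 in Ctrl from d4 to d6 and at 0.14 for the change, Ndufb7 at -0.081 in Ctrl from d0 to d4 and Sdha at -0.011 in Ctrl from d0 to d4. With quantile normalization, Atp5b was at -0.010 at d4 and -0.011 at d6. The remaining changes of sign among the differences given above were in differences between KO and Ctrl that were not called in the values given above nor under these alternatives. At d0 these were Sdhb (0.17) and Sdhd (0.053) with neighbour medians removed, Sdhd with chromosome medians removed (0.044), mt-Co1 (-0.10) and mt-Nd1 (0.00) with quantile normalization, and mt-Nd4 with median-ratio rescaling (0.043), rescaling without mtDNA genes (0.012) and voom (0.033). At d4 they were Sdha with median-ratio rescaling (0.050), chromosome medians removed (0.047) and neighbour medians removed (0.052), and mt-Co1 with median-ratio rescaling (0.15) and voom (0.10). At d6 they were Sdhc with median-ratio rescaling (0.14), chromosome medians removed (0.10), neighbour medians removed (0.25) and voom (0.072), Sdhd (-0.0079), mt-Cytb (-0.19) and mt-Nd1 (-0.18) with quantile normalization, mt-Cytb (-0.0020) and mt-Nd1 (-0.0029) with rescaling without mtDNA genes, and mt-Nd2 with median-ratio rescaling (0.14) and voom (0.068). With 1 library left out, the difference at d0 ranged from -0.15 to 0.016 for Sdhd, from -0.016 to 0.18 for mt-Nd2 and from -0.075 to 0.087 for mt-Nd4, at d4 from -0.11 to 0.025 for mt-Co1, and at d6 from -0.092 to 0.046 for Sdhc, from -0.11 to 0.20 for mt-Cytb, from -0.12 to 0.23 for mt-Nd1 and from -0.20 to 0.22 for mt-Nd2.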
